A study of Mus musculus with 2 samples.

Results

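The cytosolic ribosomal proteins were read on arrays of whole 8.5 dpc (days post coitum) mouse embryos that carried both copies of chromosome 18 from a single parent. The matUPD18 embryos had a maternal uniparental disomy of the whole chromosome and the patUPD18 embryos the paternal one. Each genotype was read on 1 Affymetrix 430 array. How many embryos went into each RNA, on which strain background and from which cross, the sources used here do not say. Members were chosen by symbol alone. A probe set was taken where the platform annotation gave exactly 1 gene symbol and that symbol was Rpl or Rps plus a number, with a single a, x or l allowed at the end, or was Rpsa, Rplp0, Rplp1 or Rplp2. This gave 100 of 45101 probe sets, for 46 of 18193 genes: 24 of the large subunit (44 probe sets) and 22 of the small subunit (56 probe sets). Rplp1 had no such probe set.

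Every cell builds its proteins on ribosomes. The small subunit binds the mRNA and matches codons to tRNAs, and the large subunit joins the amino acids and passes the growing chain out through a tunnel. Each ribosomal protein is needed in about the same number as the others, and their genes are among the most heavily transcribed in growing embryonic tissue. Their mRNAs characteristically begin with a C followed by a run of pyrimidines, the 5' terminal oligopyrimidine (TOP), through which TOR signalling and the RNA-binding protein Larp1 control translation. The genes have left many processed copies in the mouse genome, so a short array probe can match several transcripts.

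The annotated starts of several members carry the pyrimidine run that defines this class, and those of the members with the lowest and highest ratios, and of members read by many probe sets, are shown for that reason. Each line gives 10 bases before and 20 bases from the RefSeq start, 5' to 3' on the transcribed strand (GRCm38.p6). The longest pyrimidine run that begins with C is in capitals, and a shorter run in the same window, as in Rps18, stays in lower case.
Rps26: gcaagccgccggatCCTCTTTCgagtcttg
Rpl14: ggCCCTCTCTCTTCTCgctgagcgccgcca
Rps24: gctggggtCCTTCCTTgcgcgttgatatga
Rpl41: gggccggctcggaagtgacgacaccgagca
Rpl35: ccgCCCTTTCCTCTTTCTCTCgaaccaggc
Rps18: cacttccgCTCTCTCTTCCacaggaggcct
Rpl13a: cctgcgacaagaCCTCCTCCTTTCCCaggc
Rpl38: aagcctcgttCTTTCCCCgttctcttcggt
These windows lie at chr10:128626487-128626516 (Rps26, minus strand), chr9:120571507-120571536 (Rpl14, plus), chr14:24490668-24490697 (Rps24, plus, the upstream one of its annotated starts), chr10:128549149-128549178 (Rpl41, minus), chr2:39005112-39005141 (Rpl35, minus), chr17:33955646-33955675 (Rps18, minus), chr7:45128726-45128755 (Rpl13a, minus) and chr11:114668570-114668599 (Rpl38, plus). Rps26, lowest in matUPD18 relative to patUPD18, and Rps24, among the highest, both had the run, and Rpl41 did not.

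The motif searched was a C followed by at least 4 bases that are each C or T, with that C within 10 bases of an annotated start. On the transcribed strand it was found in 26 of the 40 member genes with a window (65.0%) and in 9007 of 27025 genes of the whole table (33.3%). On the other strand the values were 9 members (22.5%) and 10115 genes (37.4%). The stricter CTTTC, an instance of the same motif, was found in 9 members (22.5%) and 949 genes (3.51%), and on the other strand in 0 members and 874 genes (3.23%). These are matches of letters within a window. RefSeq starts can be off by several bases, and 6 members had no window in the table. Members with and without the run overlapped in their log2 ratios, with a median of -0.33 over 24 measurable genes with it and -0.30 over 13 without it.

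Values are MAS5 signals, in arbitrary units, scaled by the authors so that each array has the same trimmed mean, and log2 ratios are matUPD18 over patUPD18. A gene was read by its probe set of highest mean signal and was called measurable where at least 1 of its signals reached the 60th percentile of that array (190.1 in matUPD18 and 184.9 in patUPD18). Of the 46 members, 43 were measurable, and all 43 passed this limit on both arrays. The other 3 were Rps16 (signals 3.55 and 3.77), Rpl3l (15.8 and 9.04) and Rpl39l (44.2 and 114.0). Of the 100 member probe sets, 89 were measurable. Just inside the limit were a Rpl35 probe set (151.0 and 220.8) and a Rpsa probe set (130.5 and 231.3), and just outside it was a Rps3 probe set (97.8 and 177.0). With 1 array per genotype there was no test and no estimate of how much embryos of a genotype vary, and the number of arrays limits the precision of every value.

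Under the deposited scaling most ribosomal protein genes read somewhat lower in matUPD18, by about the amount seen in other genes of like signal, a direction that turned when the arrays were scaled to their hybridisation controls. The median log2 ratio was -0.34 over 22 large subunit genes and -0.27 over 21 small subunit genes, against -0.04 over all 10484 measurable genes. Of the 43 members, 37 read lower in matUPD18 (86.0%, against 53.9% of all measurable genes); the Wilson 95% interval of that share, 72.7% to 93.4%, covers counting error over genes only, and genes are not replicates. Scaling to these controls, which are bacterial and phage sequences, left 5 of 43 members lower in matUPD18 (11.6%, against 11.98% of all measurable genes under that scaling). None of the 43 members was at least 2-fold apart, where 4.48% of all measurable genes were (2.7% with matUPD18 the higher and 1.78% with patUPD18 the higher). At 1.5-fold, 1 member was apart as deposited, Rps26, with patUPD18 the higher. The count depended on the scaling. Median centring gave 3 such members, where 19.0% of all measurable genes were apart. Quantile gave 0 (18.6%), loess 0 (18.5%) and loess without ribosomal probe sets 1 (18.6%). Rps26 itself fell just short of 1.5-fold after quantile (log2 ratio -0.5832) and loess (-0.5847). It lay just past that fold after loess without ribosomal probe sets (-0.5942). Scaling to the controls turned the direction, with 5 members past 1.5-fold toward matUPD18 and 0 toward patUPD18, where 40.1% of all measurable genes were apart. Rps14, 1 of these 5, was read there by another probe set than as deposited, which had become the brighter one. As deposited, the share of all measurable genes past 1.5-fold was 18.7%, made up of 9.97% with matUPD18 and 8.74% with patUPD18 the higher. Of 745 other genes of like signal, 9 were past 1.5-fold toward matUPD18 and 40 toward patUPD18. In RNA from whole embryos, fewer cells of a type and less RNA per cell cannot be told apart.

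**Figure D1:**
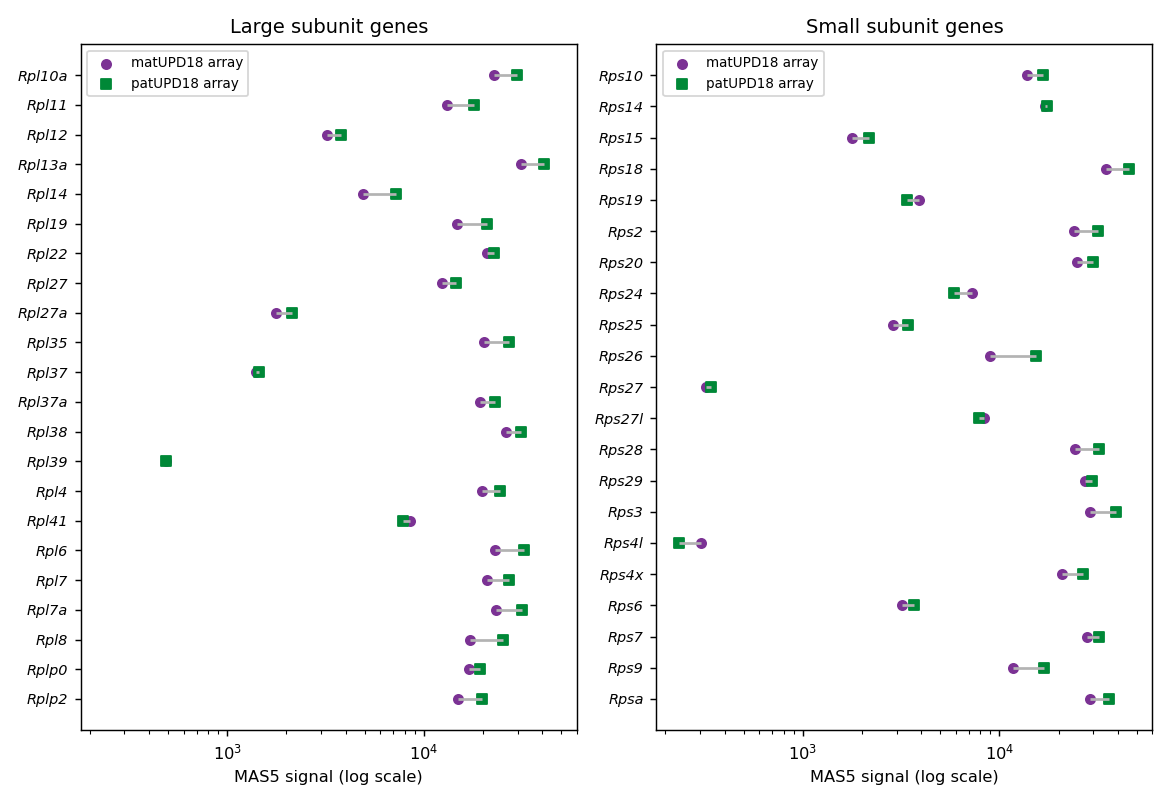
MAS5 signal (log scale) of the 43 measurable ribosomal protein genes, 1 point per array, each gene read by its brightest probe set; signals of different genes come from different probes and are not comparable with each other. The pairs lie close together, with matUPD18 lower for 37 genes under the deposited scaling and for 5 after scaling to the hybridisation controls; Rps26 has the widest gap.

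The ratio of the whole array depended on signal, and the ribosomal proteins sit at its bright end. Their median signal was 16999 in matUPD18 and 19769 in patUPD18, against 716.4 and 708.2 over all measurable genes. Among genes other than members, the median log2 ratio was -0.03 below a mean signal of 1000, 0.00 from 1000 to 3000, -0.05 from 3000 to 6000, -0.13 from 6000 to 12000, -0.28 from 12000 to 20000 and -0.33 above 20000. As deposited, the 91 other genes above 20000 all read lower in matUPD18, as did the 20 members there, whose median was -0.38. From 12000 to 20000 the 9 members had a median of -0.41 and all read lower in matUPD18, as did 202 of 238 other genes. Within their own signal band, 25 of 43 members lay below the median of the other genes and 18 did not. Below 12000, 8 of 14 members read lower in matUPD18 as deposited.

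**Figure D2:**
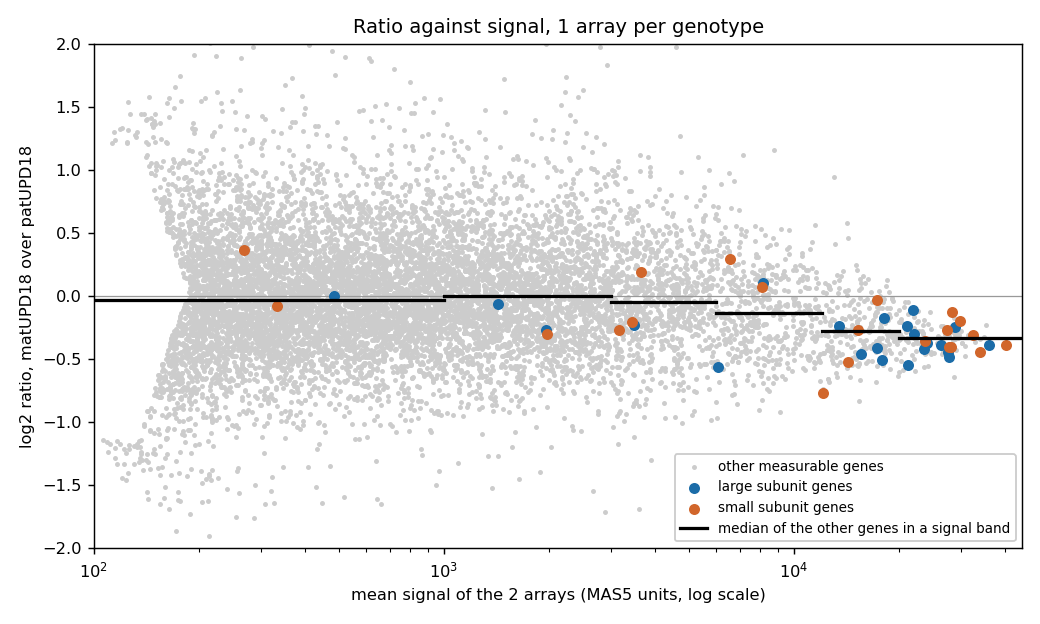
Log2 ratio (matUPD18 over patUPD18) against mean signal (log scale) for 10484 measurable genes, with 28 other genes beyond the vertical axis not drawn; bars are the medians of the other genes in 6 signal bands. Members follow the bars downward at high signal, where the 91 other genes above 20000 have a median of -0.33 and the 20 members -0.38 as deposited; loess scaling removes this trend, and scaling to the hybridisation controls moves the median of all genes from -0.04 to 0.46.

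The values relative to other genes therefore depended on whether the scaling follows signal. Relative to the median of all measurable genes, the large subunit lay at -0.29 and the small subunit at -0.22 as deposited. Median centring gave -0.29 and -0.22, and scaling to the controls, which moved the median of all genes from -0.04 to 0.46, gave -0.30 and -0.23. After quantile scaling the values were -0.02 and 0.02, and after loess scaling, which removes the trend with signal, -0.06 and -0.02. Ribosomal protein probe sets supplied 63 of the 205 probe sets above 20000 (30.7%), so such scalings are partly fitted to the members themselves. Fitted without any probe set carrying a ribosomal protein symbol, loess gave -0.07 and -0.03. The 9 hybridisation controls had a median log2 ratio of -0.50, from -0.75 to -0.41. They are added after the embryo RNA has been amplified and labelled.

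**Figure D3:**
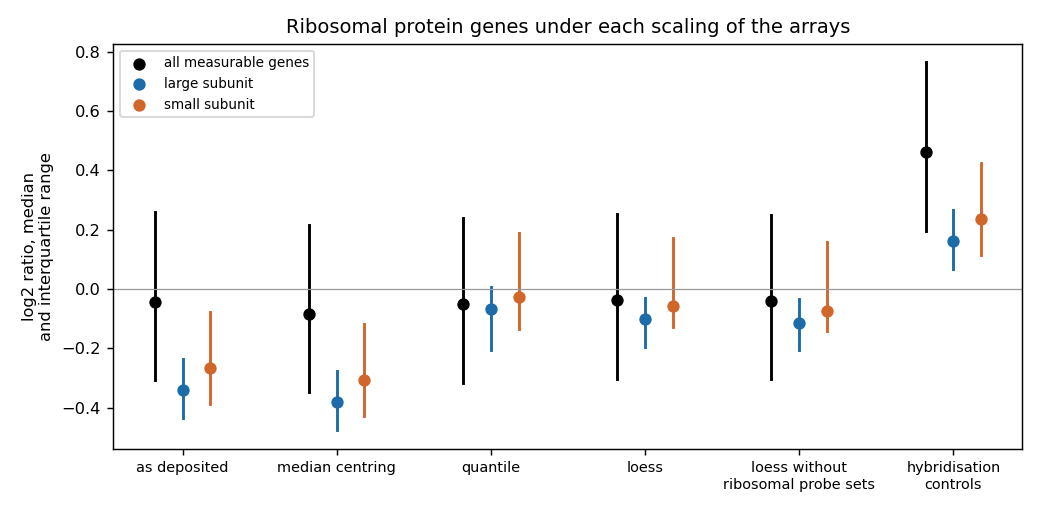
Median (point) and interquartile range (bar) of the log2 ratio for all measurable genes, 22 large subunit genes and 21 small subunit genes under 6 scalings. Both subunits lie below all genes as deposited, after median centring and after control scaling, and close to them after quantile and loess scaling; under control scaling both medians are above 0 (0.16 and 0.23).

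The members were close to each other, and so were other genes at the highest signals. Their log2 ratios had an interquartile range of 0.26, against 0.37 for 745 other genes between the quartiles of the members' mean signal (6330 and 27432) and 0.57 for all measurable genes. The large subunit spanned -0.56 to 0.10 and the small subunit -0.77 to 0.36. Those 745 genes had a median of -0.23, between all genes and the members. They leave out the brightest genes. Above a mean signal of 20000 the quartiles were -0.41 and -0.26 for the 20 members and also -0.41 and -0.26 for the 91 other genes. From 12000 to 20000 they were -0.51 and -0.24 for 9 members and -0.41 and -0.10 for 238 other genes.

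**Figure D4:**
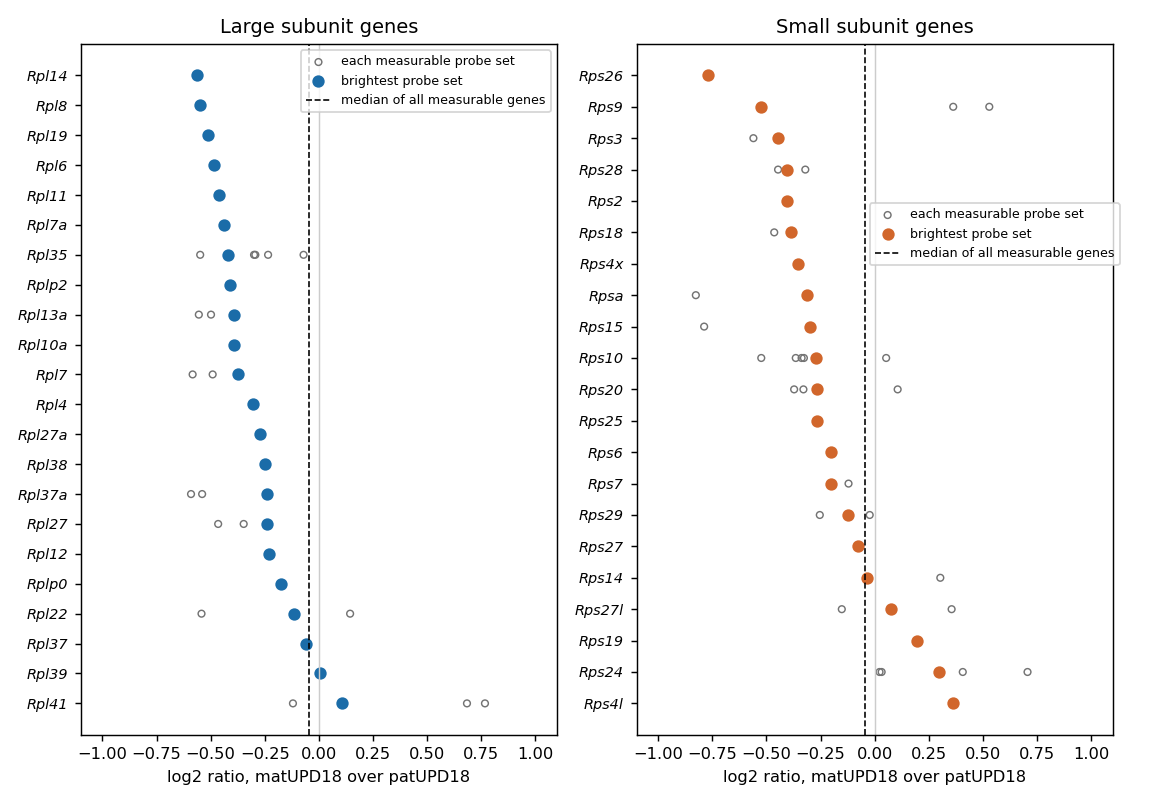
Log2 ratio (matUPD18 over patUPD18) of each measurable member, ordered within its subunit; filled points are the brightest probe set, open points the other measurable probe sets, and the dashed line is the median of all measurable genes (-0.04). Members lie between -0.77 (Rps26) and 0.36 (Rps4l) as deposited; scaling to the hybridisation controls moves each probe set up by 0.50.

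In the large subunit, Rpl14 had the lowest ratio. Rpl14 read 4913 in matUPD18 and 7255 in patUPD18 (log2 ratio -0.56), and loess scaling left it at -0.46, the lowest of the large subunit there too. Rpl8, which helps form the peptidyl transferase centre, read 17264 and 25232 (-0.55). Rpl19, part of a bridge to the small subunit and close to the tunnel exit, read 14766 and 21029 (-0.51). After loess scaling Rpl8 lay at -0.29 and Rpl19 at -0.27, closer to 0 than as deposited. Rpl6 read 23071 and 32262 (-0.48) and Rpl7a 23340 and 31677 (-0.44). The loess values of this pair were -0.19 and -0.15.

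Rpl11, which with Rpl5 and the 5S rRNA forms a particle that can bind the p53 inhibitor Mdm2, read 13049 and 17967 (log2 ratio -0.46, or -0.24 after loess). Rpl5 had no probe set with its symbol alone. Of the P stalk, which draws elongation factors to the ribosome, Rplp2 read 14861 and 19769 (-0.41) and Rplp0 16999 and 19212 (-0.18). Neither was 1.5-fold apart. Rpl10a, of the stalk where the spent tRNA leaves, read 22755 and 29836 (-0.39). Rpl12, at the base of the P stalk, read 3208 and 3770 (-0.23).

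Of 9 proteins listed around the exit of the peptide tunnel, 5 were measurable by a probe set with 1 symbol, with a median log2 ratio of -0.11. Besides Rpl19 they were Rpl35, a docking site of the signal recognition particle (20202 and 27036, -0.42), Rpl22 (20982 and 22708, -0.11), Rpl37 (1395 and 1456, -0.06) and Rpl39 (487.4 and 486.1, 0.00). These ratios run from the level of the lowest large subunit genes to above the median of all genes. Rpl4, which lines the tunnel, read 19739 and 24387 (-0.31).

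Rpl38, whose loss in Tail short mice alters the translation of Hox mRNAs and the axial skeleton, read 26303 and 31254 (log2 ratio -0.25, or 0.05 after loess). Rpl27a, mutated in sooty foot ataxia mice, read 1773 and 2139 (-0.27). Rpl13a read 31200 and 40945 (-0.39), and its other 3 probe sets ranged from -0.55 to -0.39. Rpl7 lay at -0.37, Rpl37a at -0.24 and Rpl27 at -0.24, and all 3 probe sets of each had the same sign. Their dimmer probe sets lay at -0.58 and -0.49 (Rpl7), -0.59 and -0.54 (Rpl37a) and -0.47 and -0.35 (Rpl27). The lowest of Rpl7 and of Rpl37a thus lay below the only probe set of Rpl14 (-0.56).

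Rpl41, the smallest ribosomal protein, was the large subunit member with the highest ratio. Its brightest probe set read 8462 and 7869 (log2 ratio 0.10), and the others read 5813 and 6316 (-0.12), 2140 and 1332 (0.68) and 890 and 523 (0.77). The pair of dimmer probe sets thus passed 1.5-fold and the pair of brighter ones stayed near 0. After loess scaling the brightest lay at 0.24.

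In the small subunit, Rps26 stood lowest. Rps26, which lines the channel by which the mRNA leaves and is mutated in some patients with the red cell disorder Diamond-Blackfan anaemia, read 8989 in matUPD18 and 15318 in patUPD18 by its only probe set (log2 ratio -0.77). It lay at -0.58 after loess, at -0.58 after quantile and at -0.27 after control scaling, so it read lower in matUPD18 under each of these. Rps9, close to the decoding site, came next, at 11722 and 16872 (-0.53), but its other probe sets read 1180 and 918 (0.36) and 764 and 529 (0.53). Rps9 was the 1 member whose measurable probe sets spanned more than 1 on the log2 scale (1.05), with both signs among them.

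The proteins of the mRNA channel had a median log2 ratio of -0.41 over 5 genes. Rps2 and Rps3, at the entry, read 23899 and 31602 (-0.40) and 28847 and 39343 (-0.45). Rps28, at the exit beside Rps26, read 24116 and 31983 (-0.41), and its 3 probe sets lay between -0.45 and -0.32. Rps14, at the exit as well, was the exception (-0.03) and is described with chromosome 18. After loess scaling Rps2 lay at -0.11, Rps3 at -0.13 and Rps28 at -0.11, against -0.58 for Rps26.

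Of 14 proteins listed for the head of the small subunit, 9 were measurable, with a median of -0.27 and 8 of 9 below 0 as deposited. The share below 0 was 88.9%, beside 86.0% of the 43 members and 53.9% of all measurable genes. Scaling to the controls put all 9 above 0. Rps18 read 34954 and 45705 (-0.39). Rps10 read 13812 and 16682 (-0.27), Rps20 24831 and 29882 (-0.27), Rps25 2869 and 3449 (-0.27) and Rps29 27143 and 29577 (-0.12). Rps15 read 1771 and 2178 (-0.30) by its brighter and 321 and 554 (-0.79) by its dimmer probe set. Rps19, mutated in Diamond-Blackfan anaemia and needed for small subunit assembly, was the only head gene above 0, at 3896 and 3406 (0.19).

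Rps24, needed to process the small subunit rRNA, had the highest ratio of the 43 members after Rps4l. Its 5 measurable probe sets read 7245 and 5905 (log2 ratio 0.30), 2749 and 2707 (0.02), 1671 and 1634 (0.03), 1331 and 1004 (0.41) and 1260 and 773 (0.71). All 5 had a higher signal in matUPD18, by amounts from 1.02-fold to 1.63-fold. After loess scaling the brightest lay at 0.41, the highest of the 43 members. Rps24 and Rps26 are listed together as Diamond-Blackfan genes and lay near opposite ends of the small subunit. The 11 measurable genes of that list had a median of -0.24, and 9 of them were below 0 as deposited. That share, 81.8%, stood beside 86.0% of the 43 members and 53.9% of all measurable genes.

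Rpsa, which also serves as a laminin receptor, read 29036 and 36050 (log2 ratio -0.31) and 130.5 and 231.3 (-0.83) by a probe set near the measurable limit. Rps6, the protein that S6 kinase phosphorylates downstream of TOR, read 3206 and 3690 (-0.20). Rps7, which takes part in early rRNA processing, read 27803 and 31951 (-0.20). None of these 3 was 1.5-fold apart by its brightest probe set.

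Some symbols that differ by a final letter are true paralogues and others are not. Rps27 read 324 and 341 (log2 ratio -0.08), and its paralogue Rps27l, a p53 target, read 8324 and 7907 (0.07), with its other probe sets at 0.36 and -0.15. The difference between these genes was smaller than that between the Rps27l probe sets. Rps4x read 20730 and 26516 (-0.36) and Rps4l, which RefSeq lists as a transcribed pseudogene, 302.8 and 235.7 (0.36), at a signal where the median of other genes was -0.03. Rpl39l, best known from testis, and Rpl3l, best known from muscle, were under the measurable limit. Rpl7 and Rpl7a, Rpl27 and Rpl27a, and Rpl37 and Rpl37a are unrelated proteins despite their names.

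A single member lay on the disomic chromosome. Rps14 maps to chromosome 18, and its 2 probe sets, of almost equal mean signal, read 17117 and 17517 (log2 ratio -0.03) and 18936 and 15349 (0.30). Neither approached the ratio of Impact, the paternally expressed gene of that chromosome (328.4 and 2466, -2.91). The median of 269 measurable chromosome 18 genes was 0.05, at median signals of 992.6 and 965.9. Other genes from 12000 to 20000, the signal band of Rps14, had a median of -0.28 and quartiles of -0.41 and -0.10. Both Rps14 probe sets lay above the upper quartile. The X-linked members were Rpl39, at 0.00, and Rps4x, at -0.36, while Xist read 1568 and 128.1 (3.61). The 365 measurable X-linked genes had a median of 0.03, at median signals of 789.6 and 678.0. In the signal bands of Rpl39 (below 1000) and Rps4x (above 20000), other genes had medians of -0.03 and -0.33. The remaining 43 of the 46 members were spread over 15 autosomes.

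Probe sets of the same member lay closer together than those of other genes, with no test of the difference. Over 20 members with several measurable probe sets (66 in all) the pooled standard deviation of the log2 ratios was 0.25, against 0.44 over 3983 other genes. Above a mean signal of 1000 the values were 0.22 over 18 members and 0.35 over 1030 other genes. That cut does not match signal, as 14 member and 3421 other probe sets lay from 1000 to 3000 and 28 and 108 above 20000. The quartiles of the other probe sets were -0.26 and 0.29 in the first of these bands and -0.40 and -0.26 in the second. The part of signal and of probe set type in this closeness was not tested. For 13 of the 20 members all probe sets had the same sign, and for 7 they spanned more than 0.5. Rpl35 is an example of agreement, with all 6 probe sets between -0.55 and -0.07. Rps10 had 5 of 6 below 0, the exception reading 831.6 and 801.6 (0.05). Rpl22 had 1 of 3 above 0, at 4345 and 3932 (0.14), and another at 4862 and 7081 (-0.54).

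Counting probe sets rather than genes gave a similar picture. Of the 89 measurable ones, 70 read lower in matUPD18 as deposited (78.7%, against 51.5% of other measurable probe sets with 1 symbol). These were 36 of 41 in the large subunit (87.8%) and 34 of 48 in the small subunit (70.8%). None was at least 2-fold apart, where 5.22% of all measurable probe sets with 1 symbol were (3.27% toward matUPD18 and 1.95% toward patUPD18). After scaling to the controls 4 were, all toward matUPD18, where 14.6% of all were past 2-fold that way. As deposited at 1.5-fold, 7 were apart, where 20.1% of all were (11.4% toward matUPD18 and 8.76% toward patUPD18). Toward matUPD18 these were 3, a Rps24 and a pair of Rpl41 probe sets. Toward patUPD18 they were 4, namely Rps26, the dimmer ones of Rpsa and Rps15 and a Rpl37a probe set (2735 and 4118). Of the 20 members with several, the dimmest probe set lay above the brightest in 11 and below it in 9.

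Many member probe sets were of types that can match more than 1 transcript. Of the member probe sets, 40 of 100 had the suffix _x_at, which marks probes that may match other transcripts, against 5.83% of all probe sets with 1 symbol. Measurable member probe sets of that type had a median log2 ratio of -0.25 (38 probe sets), those ending in _a_at, which may match several transcripts of a gene, -0.41 (26) and those of the plain _at type -0.25 (22). Another 110 probe sets carried a ribosomal protein symbol beside other symbols and name no gene here. Their 100 measurable ones had a median of -0.30, with 85 lower in matUPD18 as deposited and 1 at least 2-fold apart. Of measurable probe sets with 1 symbol, 51.5% of those other than members were lower in matUPD18, and 5.22% of all were 2-fold apart.

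Ribosomal protein genes that the symbol rule passes over were read as well. Fau, the ubiquitin-like fusion that yields a small subunit protein, read 2495 and 4482 (log2 ratio -0.85), beyond any measurable member. Rps3a1 read 16544 and 20589 (-0.32), Rpl7l1 4118 and 5181 (-0.33) and Rpl22l1, the paralogue of Rpl22, 3182 and 2523 (0.33).

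The genes that feed or use the ribosome gave the following values. The elongation factors, which move the ribosome along the mRNA, had a median log2 ratio of -0.28 over 6 genes, none 2-fold apart; Eef1a1 read 28721 and 37006 (-0.37) and Eef1d 10784 and 14127 (-0.39). Other mRNAs known to carry the TOP start, a list that shares genes with the elongation factors, had a median of -0.21 over 18 genes, led by Tpt1 (25828 and 35839, -0.47) and with Eif4b (8941 and 6595, 0.44) at the other end. The median signals of these lists were 11972 and 14509 for the elongation factors and 17728 and 19962 for the TOP list. The median of 23 initiation factors was -0.09, with Eif3a (12106 and 5420, 1.16) and Eif3k (518.2 and 1199, -1.21) past 2-fold.

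Of 75 mitochondrial ribosomal protein genes, which make the separate ribosome of the mitochondrion, 55 read lower in matUPD18 as deposited and none was 2-fold apart. The 55 were 73.3%, against 53.9% of all measurable genes, and 4.48% of all measurable genes were 2-fold apart. Their median was -0.15, at median signals of 1479 and 1739, and they ranged from -0.88 (Mrpl48, 906.1 and 1669) to 0.77 (Mrps28, 3216 and 1885). Ribosome assembly factors had a median of -0.09 over 54 genes. Past 2-fold were Heatr1, of the small subunit processome (1516 and 3166, -1.06), and Utp14a (2139 and 1009, 1.08). The RNA polymerase I list had a median of -0.08 over 18 genes, from Ttf1 (-0.60) to Taf1b (0.43).

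The TOR signalling list, which also held Myc, Mycn and Larp4, had a median of 0.13 over 14 genes. Of these, 10 were higher in matUPD18 as deposited and 4 lower (28.6%, against 53.9% of all measurable genes). Rictor read 384.5 and 194.3 (0.98), Larp4 2103 and 1228 (0.78) and Eif4ebp2 2126 and 3420 (-0.69). Larp1, which binds the TOP start, read 3851 and 3274 (0.23) and Mtor 955.5 and 1011 (-0.08). The p53 target list, which responds when ribosome assembly fails, had a median of -0.16 over 17 genes, with Btg2 at least 2-fold higher in patUPD18 (357.4 and 786.0, -1.14) and Trp53inp1 (1484 and 978.8, 0.60) highest in matUPD18; Cdkn1a read 392.3 and 535.7 (-0.45).

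**Figure D5:**
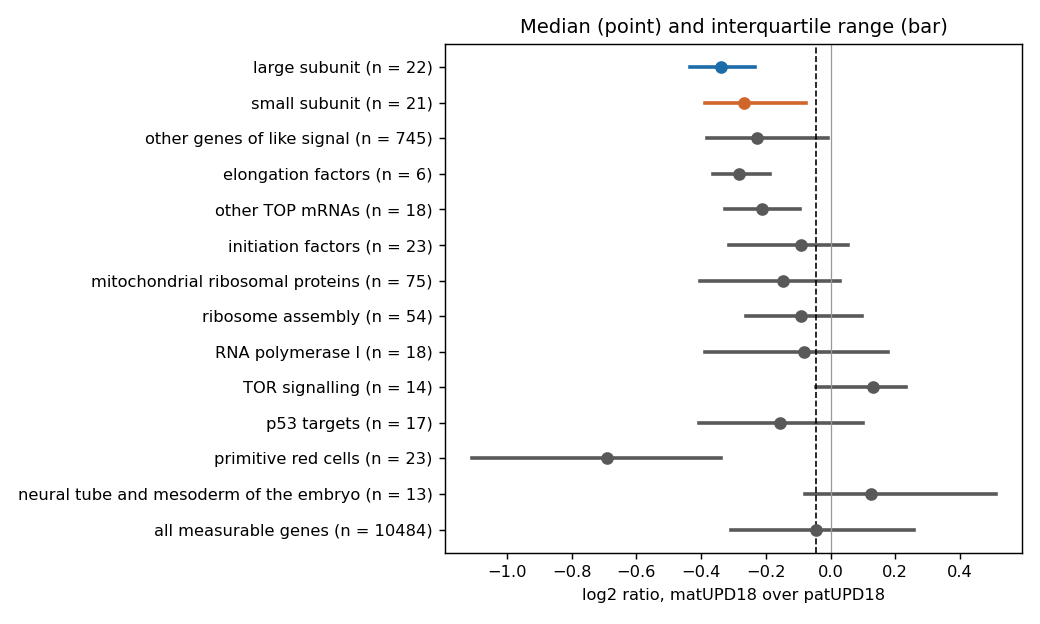
Median (point) and interquartile range (bar) of the log2 ratio, as deposited, of the ribosomal protein genes and other gene lists, with the number of measurable genes; the dashed line is the median of all measurable genes. The large (-0.34) and small (-0.27) subunits lie beside the elongation factors (-0.28) and other genes of like signal (-0.23); scaling to the hybridisation controls moves the median of all genes from -0.04 to 0.46 and the subunits above 0.

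Markers of several tissues differed between the arrays. Of 30 yolk sac and visceral endoderm genes on the array 25 were measurable, 23 of them with the higher signal in matUPD18, and the list summed to 43744 and 10653. Of 27 red cell genes 23 were measurable, 20 of them with the higher signal in patUPD18, and the list summed to 64988 and 95152. Of 16 genes marking neural tube and mesoderm of the embryo, 13 were measurable, 9 of them with the higher signal in matUPD18 (median log2 ratio 0.13), and the list summed to 29303 and 31061. Without Actc1 (7165 and 10179) it summed to 22138 and 20882. Of 10 placenta and decidua genes on the array 4 were measurable, all higher in matUPD18 as deposited and summing to 1166 and 738. The part of these tissues in the ribosomal protein values was not tested.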

How the data were processed

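The deposited table holds a MAS5 signal intensity for each probe set on each array. MAS5 and GCOS are named in the submitters' processing notes, without versions, and the RNA was amplified (RiboAmp kit) per the labels' protocols. The 2% trimmed mean was 500.003 in matUPD18 and 500.004 in patUPD18, so the authors had scaled each array to a common target. Symbols came from the platform annotation and were updated by Entrez identifier (all 46 members matched). Signals under an array's 40th percentile (84.2 and 82.5) were raised to it before log2. Loess used a span of 0.2 and 3 robustness iterations. Members and lists were chosen with earlier results of these data known. Members named are those on chromosomes 18 and X, the 10 largest ratios in each direction, those whose probe sets disagree, the listed structural groups, paralogues and those at the measurable limit; of other lists, up to 2 of the largest ratios in each direction. Larp1, Mtor, Cdkn1a and the probe set values of other members were added after they were seen. The calculation was tested on simulated arrays with the same noise at every signal and no trend of the ratio with signal. Control scaling was not simulated, so the simulation cannot decide between the scalings. Alternatives covered scaling, floor, measurable limit, probe set choice, fold and symbol rule; signal bands were chosen after seeing the data. Software was matplotlib 3.10.9, statsmodels 0.14.6, scipy 1.17.1, numpy 2.4.6 and pandas 2.3.3 under Python 3.11.15.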

Additional observations from a re-analysis of the deposited data

How the results depend on the processing

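The large and small subunit medians (-0.34 and -0.27 as deposited) moved by less than 0.1 on the log2 scale under median centring, other floors, other measurable limits, other choices of probe set and the wider symbol rule, with 1 exception: without _x_at and _s_at probe sets the large subunit median was -0.45 over 20 genes. They were -0.067 and -0.028 after quantile, -0.10 and -0.056 after loess, and -0.12 and -0.075 after loess without ribosomal probe sets, which was chosen after seeing the data. Scaling to the hybridisation controls reversed both, to 0.16 and 0.23. The share of members higher in patUPD18, 86.0% as deposited, was 62.8%, 67.4%, 69.8% and 11.6% under these 4 scalings in the same order, beside 54.9%, 53.7%, 53.9% and 11.98% of all measurable genes. No member was 2-fold apart under any alternative at that fold or at 3-fold. Of all genes, the share past 2-fold ran from 2.38% (both signals over the limit) to 13.4% (control scaling). At 3-fold it was 0.72%, so a count of 0 there says little about the members. At 1.5-fold as deposited, 1 member and 7 member probe sets were apart. The shares over all were 18.7% of measurable genes and 20.1% of measurable probe sets with 1 symbol. The members past 1.5-fold were 3 under median centring, 0 under quantile and loess, 1 under loess without ribosomal probe sets and 5, all toward matUPD18, under control scaling. Of all measurable genes, 19.0%, 18.6%, 18.5%, 18.6% and 40.1% were apart under these scalings in the same order. Of the 89 measurable member probe sets, 13 were past 1.5-fold under median centring, where 20.3% of all measurable probe sets with 1 symbol were. Control scaling gave 14, all toward matUPD18, where 42.5% of all were apart. Quantile scaling gave 9, loess 5 and loess without ribosomal probe sets 6, where 19.9% of all were apart in each case. After control scaling 4 member probe sets were at least 2-fold apart, all toward matUPD18, where 14.6% of all were. The quantile value of Rps14 (0.58) comes from its other probe set, which became the brighter one there and under control scaling. By that probe set Rps14 is 1 of the 5 members past 1.5-fold under control scaling. No paired analysis was possible because each genotype has 1 array, and no replicate could be left out.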
